A study of Mus musculus with 8 samples.

Results

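The hemidesmosome and laminin-332 genes were followed in sorted mammary tumor cells, in 8 RNA libraries from 4 mice. The set was a fixed list of 7 genes, *Col17a1*, *Itga6*, *Itgb4*, *Dst*, *Plec*, *Lama3* and *Lamb3*, out of 53697 genes in the count table, and all 7 had enough counts to be tested, as had 18322 genes in all. All mice were C57BL/6 and carried MMTV-PyMT, a transgene in which the mouse mammary tumor virus promoter drives the polyoma middle T oncogene in mammary epithelium. Mice GFP 1 and GFP 2 were PyMT-Dll1GFP animals, in which the fluorescent reporter is knocked in at *Dll1*, and mice mCh 1 and mCh 2 were PyMT-Dll1mCh animals, in which a bacterial artificial chromosome carries an mCherry reporter of *Dll1*. From each mouse the lineage-negative tumor cells were split on reporter fluorescence and gave 1 Dll1+ and 1 Dll1- library, so each of the 4 groups of reporter and Dll1 status held 2 libraries. The ages of these mice are not given in the sources used here, and reporter type, line and the individual mice cannot be told apart.

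Hemidesmosomes are the junctions by which epithelial cells hold on to the basement membrane. Their transmembrane parts are the α6β4 integrin and collagen XVII. On the cytoplasmic side the plakins plectin and BP230 (bullous pemphigoid antigen 1, encoded by *Dst*) tie these to keratin filaments, and on the outside α6β4 binds laminin-332, a laminin trimer that holds the α3 and β3 chains. In the mammary gland the junctions sit at the base of the duct, mainly under the basal (myoepithelial) layer.

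The windows of 250 bases before the RefSeq start sites of *Col17a1* and *Lamb3* are shown because these were the members called different between Dll1+ and Dll1- cells in the joint fit of the mice. The *Col17a1* window is on the minus strand of GRCm38.p6 at chr19:47692043-47692292. *Lamb3* has 2 start sites in that table, and the downstream one is shown, on the plus strand at chr1:193301993-193302242. Both are written 5′ to 3′ along the gene, with matches to searched motifs in capitals.
Col17a1: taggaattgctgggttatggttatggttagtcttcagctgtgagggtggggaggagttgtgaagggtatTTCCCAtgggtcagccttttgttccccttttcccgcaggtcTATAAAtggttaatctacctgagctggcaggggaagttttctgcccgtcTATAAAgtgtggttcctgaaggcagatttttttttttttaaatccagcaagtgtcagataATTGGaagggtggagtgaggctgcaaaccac
Lamb3: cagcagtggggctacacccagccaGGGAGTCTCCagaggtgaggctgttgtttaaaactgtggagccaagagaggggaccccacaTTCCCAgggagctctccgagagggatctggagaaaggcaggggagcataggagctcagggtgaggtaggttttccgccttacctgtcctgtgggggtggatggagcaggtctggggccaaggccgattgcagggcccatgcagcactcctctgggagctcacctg
The search covered both strands for TGGGAA (the core bound by RBPJ, the DNA-binding partner of Notch), TGANTCA (AP-1), GGGCGG (GC box), TATAAA (the core promoter box of that name), CCAAT, and the p53 family half-site and NF-kB by name. In *Col17a1* the capitals mark, in order, an RBPJ core on the opposite strand whose first base lies 181 bases before the start, TATA boxes at 140 and 91 bases, and a CCAAT box on the opposite strand at 31 bases. In *Lamb3* they mark an NF-kB match at 226 bases and an RBPJ core on the opposite strand at 165 bases. The window of the upstream *Lamb3* start site, not printed, held an RBPJ core at 213 bases and no NF-kB match. No printed match overlaps another. These are common strings: of 32851 RefSeq promoter windows of this length, 21.6% held the RBPJ core, 12.4% the TATA box, 33.8% CCAAT and 3.90% the NF-kB motif. AP-1, in 6.75% of all windows, and the p53 family half-site, in 7.13%, had no match in the windows of *Col17a1*, *Lamb3* or *Dst*. The outer *Dst* window held 4 GC boxes, a motif of 32.7% of all windows. A match is a string of letters and says nothing about binding.

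Total estimated counts ran from 27301396 to 123907626 per library. *Dll1*, the gene behind the sort, lay between 7.61 and 50.3 TMM CPM (CPM, counts scaled to a common library size, here after edgeR's trimmed mean of M-values) in Dll1- libraries and between 87.5 and 250.2 in Dll1+ libraries, and was higher in the Dll1+ library of every mouse. The epithelial genes *Epcam* (898.6 to 1240) and *Krt8* (1898 to 3633 TMM CPM) were high in all 8 libraries. The reporters differed in other cell types. The summed level of 6 fibroblast markers was 984.5 to 1218 TMM CPM in the 4 GFP libraries, 2978 to 3231 in the mCh Dll1+ libraries and 7426 to 21350 in the mCh Dll1- libraries, with none of the 6 at 0 counts in any library. The summed pericyte (571.5 to 720.5), endothelial (133.9 to 303) and immune markers (306.8 to 343.6 TMM CPM) were likewise highest in the mCh Dll1- libraries. The sort removed cells with CD45, CD31 or TER119, and the sources name no step against fibroblasts.

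*Col17a1* showed the widest gap between Dll1+ and Dll1- cells among the 7 genes. It encodes collagen XVII (BP180), the transmembrane collagen of the hemidesmosome, and lies on the minus strand at chr19:47646344-47692094 (GRCm38), where no other annotated gene shares its exons. In mouse GFP 1 it measured 3.75 TMM CPM in the Dll1- library and 25.6 in the Dll1+ library. The pairs were 2.05 and 8.41 in GFP 2, 7.98 and 82.7 in mCh 1, and 8.65 and 48.95 in mCh 2. Every mouse was thus higher on the Dll1+ side, and within each reporter the Dll1+ and Dll1- libraries did not overlap. Across reporters they met, since the Dll1+ library of GFP 2 lay just under the Dll1- library of mCh 2. The estimated counts behind these values were 59 to 997 in Dll1- and 376 to 5418 in Dll1+ libraries. The mean was 5.61 ± 3.22 TMM CPM in Dll1- and 41.4 ± 32.1 in Dll1+ libraries (SD, n = 4 each). With the mouse as a block, the log2 difference was 2.72 (SE 0.22, 95% interval 2.16 to 3.28), a 6.60-fold difference.

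The 7 genes were chosen by their known roles with the fold changes between Dll1+ and Dll1- cells in these libraries already in view, so for them this comparison is a description and carries no test. In bulk RNA, more cells of a type and more RNA per cell cannot be told apart. By the threshold of the fit over all genes (edgeR quasi-likelihood test, adjusted p under 0.05), 2 of the 7 members were called higher in Dll1+ cells over the 4 mice, *Col17a1* and *Lamb3*, beside 6.98% of all tested genes. None was called lower, beside 7.04% of all tested genes, and 0 of 7 were lower at an unadjusted p under 0.05 or by DESeq2. In the GFP mice alone 1 member, *Col17a1*, was called higher (4.29% of all genes higher, 4.84% lower). In the mCh mice 3 members were, *Col17a1*, *Lama3* and *Lamb3* (5.51% of all genes higher, 6.25% lower). The median log2 difference over the members was 0.13, against 0.00 over all tested genes. That median joins unlike parts, since 3 members were higher in 4 of 4 mice and the other 4 had 95% intervals that spanned 0.

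**Figure D1:**
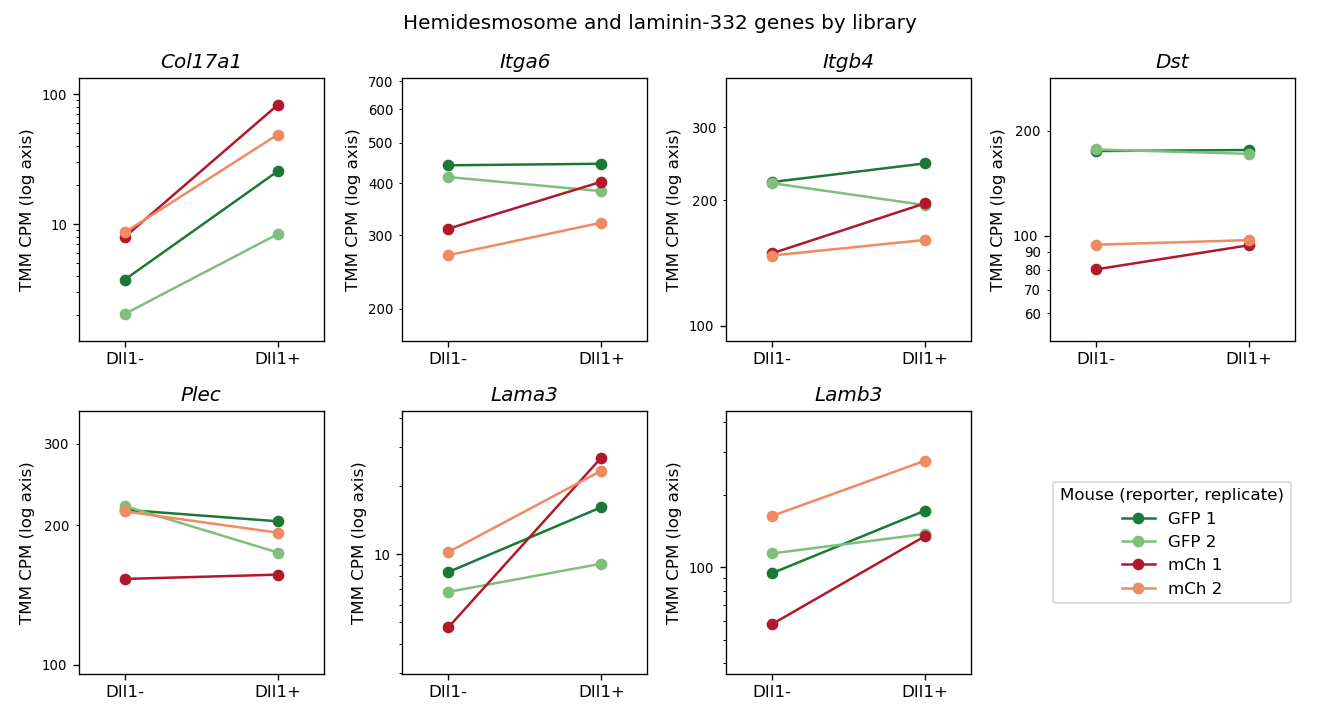
TMM CPM of each gene (log axis, 1 panel a gene) in the Dll1- and Dll1+ library of each mouse, with a line joining the 2 libraries of 1 mouse. All 4 lines climb for *Col17a1*, *Lama3* and *Lamb3*, while those of *Itga6*, *Itgb4*, *Dst* and *Plec* run nearly flat and, for *Dst*, form 2 layers by reporter.

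The laminin-332 chains followed the same direction with smaller and less even differences. *Lama3* encodes the α3 chain, which carries the integrin-binding end of the trimer. It lies on the plus strand of chromosome 18 (12333819 to 12583013), with exons inside the span of *Gm29200* on the opposite strand. Its level was 8.36 TMM CPM in the Dll1- and 16.2 in the Dll1+ library of GFP 1, and 6.83 and 9.10 in GFP 2. In mCh 1 it was 4.76 and 26.8, and in mCh 2 it was 10.2 and 23.5. The gap was therefore widest in mCh 1 (log2 difference 2.49) and narrowest in GFP 2 (0.41), and the groups overlapped. The log2 difference over the 4 mice was 1.27 (SE 0.36, 95% interval 0.36 to 2.18), a 2.42-fold difference in the 99.1st percentile of all tested genes that did not pass the threshold. DESeq2 called it, and the edgeR fit called it in the mCh mice (1.86, SE 0.36) and not in the GFP mice (0.69, SE 0.36).

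*Lamb3* encodes the β3 chain, which joins α3 in laminin-332. It lies on the plus strand at chr1:193207699-193343878, with exons inside the spans of *Hsd11b1* (opposite strand) and *4930570N18Rik* (same strand). It measured 94.5 and 171.6 TMM CPM in the Dll1- and Dll1+ libraries of GFP 1 and 114.1 and 137.4 in GFP 2. In mCh 1 it measured 58.1 and 134.6, and in mCh 2 163.1 and 276.2. Each mouse was higher on the Dll1+ side, but mouse mCh 2 stood high in both libraries, and its Dll1- library exceeded the Dll1+ libraries of GFP 2 and mCh 1. The log2 difference was 0.78 (SE 0.15, 95% interval 0.40 to 1.15), a 1.71-fold difference. Leaving out GFP 1, mCh 1 or mCh 2 ended the call (log2 differences of 0.75, 0.63 and 0.78), while without GFP 2 it held at 0.95.

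The α6β4 integrin differed far less than collagen XVII. *Itga6* encodes the α6 subunit, which also pairs with β1, and lies on the plus strand at chr2:71745616-71858416. It measured 441.1 and 444.8 TMM CPM in the Dll1- and Dll1+ libraries of GFP 1, 413.4 and 382.6 in GFP 2, 311.1 and 402.9 in mCh 1, and 268.9 and 321.6 in mCh 2. The GFP mice moved little and in opposite directions, and both mCh mice were higher on the Dll1+ side, a difference (0.32, SE 0.09) that DESeq2 called and edgeR did not. Fitted with the mouse as a block, the log2 difference was 0.13 (SE 0.10, 95% interval -0.11 to 0.37) and took in 0.

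*Itgb4* encodes β4, the subunit with the long cytoplasmic tail that meets plectin, and its partner is α6 alone. It lies on the plus strand at chr11:115974709-116008412, with exons inside the span of *B230344G16Rik* on the opposite strand. It measured 221.3 and 245.4 TMM CPM in the Dll1- and Dll1+ libraries of GFP 1, 220.0 and 194.8 in GFP 2, 149.2 and 196.7 in mCh 1, and 147.4 and 160.7 in mCh 2. Here too GFP 2 went the other way from the other 3 mice, and the log2 difference was 0.12 (SE 0.10, 95% interval -0.11 to 0.36). The subunits stayed close to each other: the ratio of *Itgb4* to *Itga6*, each per kb of exon, lay between 0.617 and 0.710 in all 8 libraries. Within a mouse that ratio differed between Dll1+ and Dll1- cells by -0.13 to 0.14 on the log2 scale. The ratio of *Col17a1* to *Itgb4* per kb ran from 0.0108 to 0.491 and was higher in the Dll1+ library of each mouse by 2.21 to 2.97 on the log2 scale.

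Of the plakins, *Dst* was the member nearest to 0. *Dst*, on the plus strand at chr1:33908225-34308661, encodes BP230 in epithelia and other dystonin isoforms in nerve and muscle. Gene-level counts add up its 20 annotated transcripts, so BP230 could not be read apart from the rest. *Dst* has exons inside the span of *Gm26788* on the opposite strand. It measured 175.1 and 176.3 TMM CPM in the Dll1- and Dll1+ libraries of GFP 1, 176.9 and 171.9 in GFP 2, 80.0 and 93.9 in mCh 1, and 94.3 and 97.2 in mCh 2. The Dll1+ and Dll1- libraries of a mouse were thus nearly level while the reporters stood apart, and the log2 difference between Dll1+ and Dll1- cells was 0.06 (SE 0.06, 95% interval -0.10 to 0.22).

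*Plec* encodes plectin, the linker from β4 to the keratin network, which also serves focal adhesions and muscle through other isoforms. It lies on the minus strand at chr15:76170974-76232574, has 22 annotated transcripts and has exons inside the span of *Parp10* on the same strand. It measured 215.9 and 203.9 TMM CPM in the Dll1- and Dll1+ libraries of GFP 1, 220.0 and 174.6 in GFP 2, 153.1 and 156.4 in mCh 1, and 214.2 and 192.7 in mCh 2. It was the only member that was lower on the Dll1+ side in 3 of 4 mice. The log2 difference was -0.13 (SE 0.08, 95% interval -0.32 to 0.05), in the 33.3rd percentile of all tested genes.

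**Figure D2:**
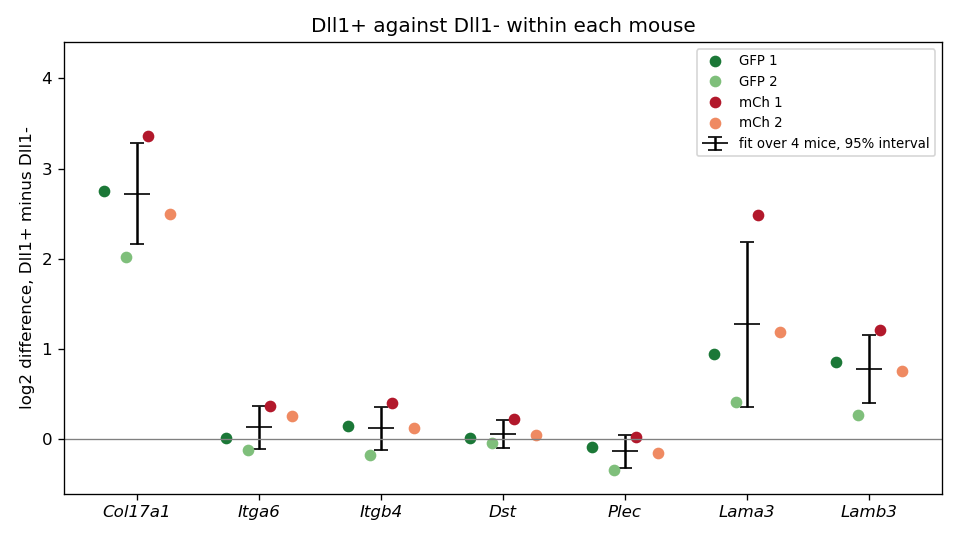
Log2 difference in TMM CPM between the Dll1+ and the Dll1- library of each mouse (points) and the fitted difference over 4 mice with its 95% interval (black), for each gene. *Col17a1* stands from 2.02 to 3.37 in the single mice, *Lama3* and *Lamb3* lie above 0 in every mouse, and the integrin and plakin genes scatter around 0.

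Set against their length, the genes spanned a wide range of levels. On the scale of TMM CPM per kb of summed exon, the mean over the 8 libraries was 41.4 ± 7.22 (SD) for *Itga6*, 27.4 ± 5.20 for *Itgb4* and 21.7 ± 9.81 for *Lamb3*. It was 10.6 ± 1.49 for *Plec*, 3.91 ± 4.74 for *Col17a1*, 3.24 ± 1.09 for *Dst* and 1.23 ± 0.755 for *Lama3*. *Itga6* exceeded *Itgb4*, and *Lamb3* exceeded *Plec*, in 8 of 8 libraries. The order of *Itgb4* over *Lamb3* held in 6 of 8, and *Col17a1* and *Dst* could not be put in order, since *Col17a1* was the higher in only 2 of 8 libraries despite its higher mean. When the length of the longest transcript was used instead, *Dst* (5.72) stood above *Col17a1* (4.21). Within laminin-332, *Lamb3* exceeded *Lama3* per kb by 8.16 to 27.2 times.

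**Figure D3:**
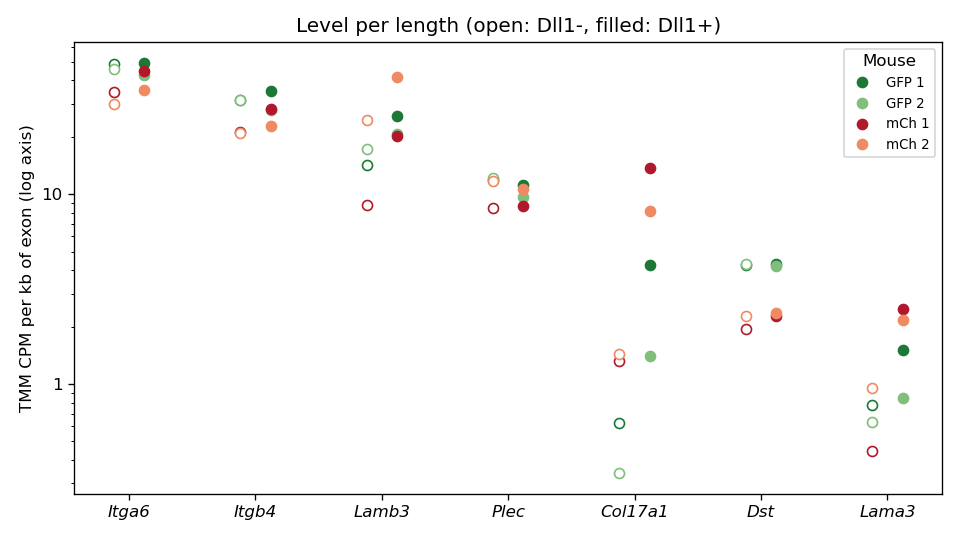
Level of each gene in TMM CPM per kb of summed exon (log axis), 1 point a library, open for Dll1- and filled for Dll1+, colored by mouse. *Itga6* and *Itgb4* form tight columns at the top, *Lama3* lies lowest, and *Col17a1* reaches from below *Lama3* to above *Plec*.

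*Col17a1* tracked other genes of the set unevenly over the 8 libraries, which share mice, reporters and the sort and so are not independent points. Pearson's r of log2 TMM CPM was 0.96 for *Itga6* with *Itgb4*, 0.88 for *Col17a1* with *Lama3* and 0.86 for *Itgb4* with *Dst*. It was 0.78 for *Lama3* with *Lamb3* and 0.54 for *Col17a1* with *Lamb3*. The lowest of the 21 pairs was *Col17a1* with *Plec*, at -0.49. The integrin subunits and *Dst* therefore ran together, apart from *Col17a1* and *Lama3*, and *Plec* followed none closely, its highest r being 0.57, with *Dst*. Among 14905 genes (mean CPM of 1 or more), those most like *Col17a1* by r were *Krt5* (0.99), a basal keratin, *Cbr2* (0.98), a carbonyl reductase, and *Sostdc1* (0.97), a secreted antagonist of bone morphogenetic proteins. *Pigp* and *D830050J10Rik* came next at 0.97 each, and 0.329% of genes exceeded an r of 0.9. *Lama3* stood 88th in that order and *Lamb3* 1578th. The mean of the 7 members was most like *Ndp* (0.96), *Pdlim3* (0.95), *Foxj1* (0.95), *Bnc1* (0.95) and *Basp1* (0.94). That mean used centred log2 values without scaling, so members with a wide range, such as *Col17a1*, weighed more in it.

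Basal markers were measured beside *Col17a1*. The summed level of 10 basal or myoepithelial markers was 160.9 to 196 TMM CPM in the GFP Dll1- libraries and 248.6 to 429.4 in the GFP Dll1+ libraries. It was 484.3 to 828.9 in the mCh Dll1- and 1595 to 1622 in the mCh Dll1+ libraries, with none of the 10 at 0 counts in any library. Both *Col17a1* and the sum were higher on the Dll1+ side of each mouse. So was the summed level of 8 luminal markers, at 5333 to 5636 TMM CPM in GFP Dll1- and 6163 to 6308 in GFP Dll1+ libraries. It was 4759 to 6140 in mCh Dll1- and 5750 to 8214 in mCh Dll1+ libraries. Of these 8, *Kit* was called higher over the 4 mice (0.81, SE 0.07, beside 6.98% of all tested genes) and *Prlr* lower (-0.745, SE 0.14, beside 7.04%). The basal sums of both mCh Dll1- libraries exceeded those of both GFP Dll1+ libraries. *Col17a1* measured 7.98 and 8.65 TMM CPM there against 8.41 and 25.6, so that only mCh 2 exceeded GFP 2, and neither exceeded GFP 1. The 10 basal or myoepithelial markers were split in that comparison of group means. *Acta2* (202 against 33.9 TMM CPM), *Tagln* (106.3 against 11.7), *Myh11*, *Mylk*, *Cnn1* and *Krt17* were higher in the mCh Dll1- libraries. *Krt5* (25.8 against 49.0), *Krt14* (92.9 against 135.3), *Trp63* and *Oxtr* were lower there. Of these 10, 4 were called higher in Dll1+ cells over the 4 mice (6.98% of all tested genes) and none lower (7.04%), among them *Krt5* and *Trp63*, the basal transcription factor p63. Between the reporters *Trp63* went against the sum, being lower in mCh than in GFP Dll1- libraries (log2 -1.59, SE 0.24, edgeR adjusted p = 0.00411). *Krt14*, the partner of *Krt5* in basal keratin filaments, went from 82.2 to 172.8 TMM CPM in GFP 1 and from 59.5 to 97.7 in GFP 2 between the Dll1- and Dll1+ libraries, and from 36.5 to 246.5 in mCh 1 and from 149.3 to 478.6 in mCh 2. The ratio of *Col17a1* to *Krt14* was higher on the Dll1+ side of every mouse, by 0.62 to 1.70 on the log2 scale, and that of *Col17a1* to *Krt5* was higher in GFP 1 (0.36) and lower in the other 3 mice (-0.14, -0.17 and -0.33). By contrast, the ratio of *Lamb3* to *Krt14* was lower in every mouse, by values of -1.54 to -0.21. The summed level of 6 skin keratinocyte markers, another source of hemidesmosome transcripts, was 36.5 to 46.3 TMM CPM in GFP Dll1- and 25.7 to 28.8 in GFP Dll1+ libraries, and 38.5 to 40.1 in mCh Dll1- and 51.9 to 54.5 in mCh Dll1+ libraries. It was thus highest where *Col17a1* was highest, and lower on the Dll1+ side of the GFP mice, where *Col17a1* was higher. Of its members, *Krt1* was called higher in Dll1+ cells over the 4 mice (1.504, SE 0.37, edgeR adjusted p = 0.0490). Its levels were low, 0.139 to 0.307 TMM CPM in GFP Dll1- libraries, and it was lower on the Dll1+ side of GFP 2 (-0.24). *Krt10* was higher in 4 of 4 mice without passing (edgeR adjusted p = 0.0899). *Krt15* was called higher in mCh mice (1.11, edgeR adjusted p = 0.0238) and was lower on the Dll1+ side of both GFP mice (-0.64 and -0.96). *Sbsn* was higher in 1 of 4 mice (-0.47 over the 4 mice, edgeR adjusted p = 0.188), and *Ivl* was at 0 counts in 4 libraries. Several of the basal markers, *Acta2*, *Tagln*, *Myh11*, *Cnn1* and *Mylk*, are also smooth muscle and pericyte genes. The part of any cell type in these differences was not tested.

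**Figure D4:**
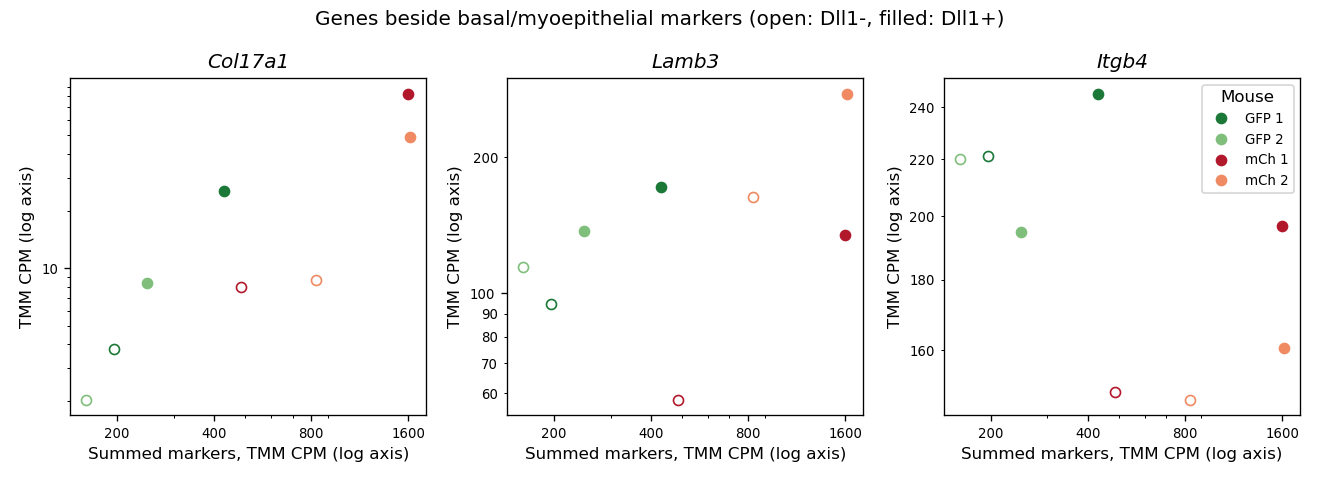
TMM CPM of *Col17a1*, *Lamb3* and *Itgb4* (vertical, log axis) against the summed TMM CPM of 10 basal or myoepithelial markers (horizontal, log axis) in 8 libraries, open for Dll1- and filled for Dll1+. *Col17a1* is highest in the 2 libraries with the highest marker sums, *Lamb3* scatters, and the highest *Itgb4* values lie among the GFP libraries with low marker sums.

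The difference between Dll1+ and Dll1- cells was compared between the reporters in 1 fit of all 8 libraries. The signed log2 value was larger in mCh than in GFP mice for all 7 members, although for *Plec* this made a smaller difference (-0.06 against -0.21). It was larger by 0.51 on the log2 scale for *Col17a1* (edgeR quasi-likelihood test, adjusted p = 0.681), 1.17 for *Lama3* (adjusted p = 0.434) and 0.42 for *Lamb3* (adjusted p = 0.567). For *Itga6* it was 0.37 (adjusted p = 0.316), and for *Itgb4*, *Dst* and *Plec* 0.28, 0.15 and 0.15, with adjusted p-values of 0.537 to 0.721. None of the 7 passed the threshold in edgeR, beside 0.071% of all tested genes, 1 of 7 had an unadjusted p under 0.05, and DESeq2 called 0. The mCh Dll1+ libraries also held fewer fibroblast transcripts than their Dll1- partners, as given above, and the part of that in these values was not tested. With 2 mice a reporter, a difference in the effect was not detected for these 7 members, and a p over the threshold does not show that the reporters act alike.

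Levels did differ between the reporters, downward in mCh mice for the integrin and *Dst* and upward for *Col17a1*. In Dll1- libraries 3 of 7 members were lower in mCh than in GFP mice, beside 17.9% of all tested genes. *Dst* was lower by 2.02-fold (log2 -1.02, SE 0.10, edgeR adjusted p = 0.00166), *Itga6* by a log2 difference of -0.56 (SE 0.15, adjusted p = 0.0277) and *Itgb4* by -0.57 (SE 0.14, adjusted p = 0.0219). In each of these the 2 mCh libraries lay below both GFP libraries. No member was called higher in mCh Dll1- libraries, beside 18.7% of all tested genes. There *Col17a1* had the largest value (log2 1.52, SE 0.58, edgeR adjusted p = 0.0815), 1 of 7 members was higher at an unadjusted p under 0.05, and DESeq2 called 1, *Col17a1*.

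In Dll1+ libraries *Col17a1* was 3.89-fold higher in mCh than in GFP mice (log2 1.96, SE 0.54, edgeR adjusted p = 0.0358). It was the 1 member called higher, beside 15.2% of all tested genes, and 1 of 7 is no more than that share. Across 8 alternative settings its log2 value ran from 1.345 to 2.954. It was called in 3 of them, with RLE size factors, DESeq2 or at least 10 counts in every library. It was not called in the others, which dropped the count filter or left out 1 mouse. *Dst* was again lower, by 1.82-fold (log2 -0.87, SE 0.10, adjusted p = 0.00412), the 1 member called lower beside 15.4%. The integrin genes no longer passed the threshold there (*Itga6* -0.19, adjusted p = 0.365, and *Itgb4* -0.30, adjusted p = 0.155). *Plec* was at -0.25 in Dll1- and -0.12 in Dll1+ libraries, with adjusted p-values of 0.331 and 0.652. *Lama3* was at -0.04 (95% interval -1.01 to 0.94) and 0.996 (adjusted p = 0.104), and *Lamb3* at 0.08 (95% interval -1.13 to 1.29) and 0.41 (adjusted p = 0.563). The wide intervals of *Lamb3* came with its mCh mice, which stood on either side of the GFP mice: without mCh 1 it was called higher in mCh, and without mCh 2 it was called lower, in Dll1- libraries (log2 0.64 and -0.80). Without either GFP mouse no gene of the whole table passed the threshold in these comparisons, so all of the calls between reporters needed both GFP mice.

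Long genes as a class were lower in the mCh libraries, a value that stands beside that of *Dst*. Of 395 genes with a longest transcript of at least 10000 bp, 50.4% were called lower in mCh Dll1- libraries and 48.1% in mCh Dll1+ libraries, with median log2 differences of -0.71 and -0.64, against 0.01 and 0.07 over all genes. *Plec* and *Lama3* belong to the same class and were not called lower. Across all genes Spearman's rho of the difference with length was -0.21 in Dll1- and -0.28 in Dll1+ libraries, and -0.02 for the difference between Dll1+ and Dll1- cells. The part of transcript length, and of the fibroblast transcripts given above, in the levels between reporters was not tested.

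**Figure D5:**
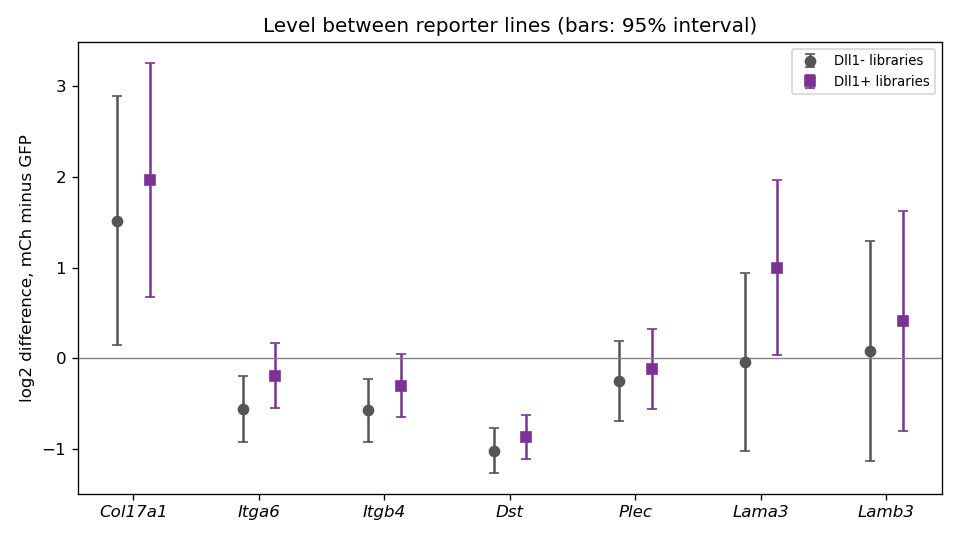
Log2 difference in level between mCh and GFP libraries for each gene, fitted over all genes, in Dll1- (circles) and Dll1+ (squares) libraries, with 95% intervals. *Dst* lies near -1 in both, *Itga6* and *Itgb4* below 0 in Dll1- libraries, *Col17a1* at 1.52 and 1.96, and the intervals of *Lama3* and *Lamb3* are the widest after those of *Col17a1*.

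The partners of the set were read in the same fits. This list and those after it were chosen with earlier results of these data known. Of 9 genes that bind or anchor with the hemidesmosome, 4 were called higher in Dll1+ cells over the 4 mice (6.98% of all tested genes). None was called lower over the 4 mice (7.04%, and 0 of 9 at an unadjusted p under 0.05), and the median log2 difference was 0.48. *Krt5* was higher by 2.77 (SE 0.25, edgeR adjusted p = 0.00730), a size close to that of *Col17a1*, and *Krt14* was at 1.55 (SE 0.36, adjusted p = 0.0533). *Col7a1*, the anchoring fibril collagen beneath laminin-332, was higher by 1.002 (SE 0.23, adjusted p = 0.0499), a call that held in 4 of 9 alternatives and was lost without GFP 1, GFP 2 or mCh 1 (0.80, 1.09 and 0.89). *Itga3*, whose α3β1 integrin also binds laminin-332, was higher by 0.48 (SE 0.07, adjusted p = 0.0115), and *Erbin*, a β4-binding scaffold, by 0.53 (SE 0.06, adjusted p = 0.00666). *Cd151*, the tetraspanin that rides with α6β4, was at 0.05 (SE 0.08, edgeR adjusted p = 0.70). *Fermt1*, the integrin activator kindlin-1, was at -0.46 (SE 0.20, edgeR adjusted p = 0.169), lower in 3 of 4 mice. It was called lower in GFP mice (-0.88, SE 0.13, edgeR adjusted p = 0.0152) and was at -0.07 in mCh mice (edgeR adjusted p = 0.767). Between the reporters *Erbin* was lower in mCh libraries, by -1.39 in Dll1- and -1.41 in Dll1+, and *Col7a1* was higher, by 1.495 and 1.05.

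Laminin chains outside laminin-332 went the other way from *Lama3* and *Lamb3* in their median, -0.48 over 8 genes. That median was -0.19 in GFP mice and -0.79 in mCh mice. *Lama5* was the 1 chain with a positive value (0.27, SE 0.11, edgeR adjusted p = 0.162), higher in 3 of 4 mice. Of the 8, *Lama4*, a chain of vessel and mesenchymal laminins, was the 1 called lower in Dll1+ cells (-0.67, SE 0.15, edgeR adjusted p = 0.0397). This stands beside 7.04% of all tested genes. None was called higher, beside 6.98% of all tested genes (0 of 8 at an unadjusted p under 0.05). The call of *Lama4* held in 5 of 9 alternatives and was lost without GFP 1, GFP 2 or mCh 1 (-0.79, -0.69 and -0.70). *Lamc3* (-1.70, adjusted p = 0.116) and *Lamc1* (-0.55, adjusted p = 0.126) did not pass. In the Dll1- libraries 5 of the 8 were called higher in mCh than in GFP mice, beside 18.7% of all tested genes. All 6 fibroblast markers were called higher there too, and none of the members was. Of 12 other basement membrane genes 2 were called higher in Dll1+ cells over the 4 mice, beside 6.98% of all tested genes. These were *Col4a6* (0.66, SE 0.09, edgeR adjusted p = 0.0109), an epithelial collagen IV chain, and *Agrn* (0.38, SE 0.08, edgeR adjusted p = 0.0321), a heparan sulfate proteoglycan. *Agrn* lost its call without GFP 1, GFP 2 or mCh 1 (0.43, 0.41 and 0.32), and *Col4a6* without mCh 1 (0.59). None was called lower over the 4 mice, beside 7.04% (2 of 12 at an unadjusted p under 0.05). *Col4a1*, the widespread collagen IV chain, was at -0.72 (edgeR adjusted p = 0.0728). In mCh mice 3 of the 12 were called higher (5.51% of all tested genes) and 3 lower (6.25%). *Col18a1* was called higher in GFP mice (0.72, SE 0.10, edgeR adjusted p = 0.0119) and lower in mCh mice (-0.49, SE 0.10, edgeR adjusted p = 0.0286). That difference between reporters, -1.21, missed the threshold (edgeR adjusted p = 0.0538). Of 7 tested proteases that can cut laminin-332 or shed collagen XVII, none was called in either direction over the 4 mice by edgeR (0 at an unadjusted p under 0.05). The shares of all tested genes were 6.98% higher and 7.04% lower. Within the reporters, *Mmp14*, a membrane-bound metalloproteinase, was called higher in Dll1+ cells of GFP mice (0.66, SE 0.12, adjusted p = 0.0224) and lower in those of mCh mice (-0.76, SE 0.11, adjusted p = 0.0158), a difference between reporters of -1.42 that missed the threshold (adjusted p = 0.0538). *Adam10*, a sheddase, was called lower in GFP mice (-0.44, SE 0.07, adjusted p = 0.0187). Over the 4 mice *Adam10* was at -0.22 (adjusted p = 0.207), *Adam17* at -0.10 (adjusted p = 0.285) and *Tll1* at 0.54 (adjusted p = 0.446).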

How the data were processed

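Reads of 8 libraries were quantified by the authors with salmon against GENCODE M20 transcripts (GRCm38.p6) and summed to genes with tximport; the version of salmon is not given in the sources used here. The deposited values are estimated counts per gene, unnormalized and whole, for 53697 genes; GENCODE M21 gave a symbol to 53668 by gene identifier. No other column was present.

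Differences were tested with edgeR 4.0.16 (R 4.3.3, limma 3.58.1): TMM scaling, filterByExpr on Dll1 status, a robust quasi-likelihood F test and Benjamini-Hochberg adjustment over 18322 genes, with a threshold of 0.05. The model over 4 mice held Dll1 status and the mouse, as the study's methods state. A second fit gave each reporter its own effect, and another, without the mouse, compared the reporters within Dll1- and within Dll1+ libraries. That last fit took the 8 libraries as independent when it estimated the spread, although each mouse gave 2 of them. All of these comparisons use the same 8 libraries. The pairs come from the mouse label; deviations of paired libraries correlated at -0.05 in GFP and 0.55 in mCh mice. For single libraries, log2 was taken after a prior count of 2. The scripts were tested on simulated data.

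The members, lists and named genes were chosen with earlier results of these data known. Named were the 7 members, *Cd151*, *Krt5*, *Krt14* and, of each list, the 3 tested genes with the lowest p. Partners were *Cd151*, *Itga3*, *Krt5*, *Krt14*, *Col7a1*, *Fermt1*, *Erbin*, *Itgb1* and 1 gene that is not reported here. *Col7a1*, *Fermt1*, *Lama5*, *Col18a1*, *Mmp14* and the marker and neighbouring genes named beyond that were chosen after their values were seen. A detection floor of 3 counts was 0.0242 to 0.110 CPM, and covers counting error only. Alternatives were RLE size factors, DESeq2 1.42.0, no count filter, at least 10 counts in every library, no replicate block, each reporter fitted alone, and leaving out each mouse. Promoter windows came from RefSeq (GRCm38.p6); those of *Itga6*, *Itgb4* and *Plec* were not used here.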

Additional observations from a re-analysis of the deposited data

Results flagged for a closer look

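The 4 Dll1- libraries of *Plec* held 1 value far from the rest. Mouse mCh 1 measured 153.1 TMM CPM against 214.2 to 220.0 in the other 3 mice, and its gap to the nearest was 0.913 of the whole range. Of 21 groups of 4 values checked this was the 1 that stood out, and chance marks about 1 group in 20. The Dll1+ library of the same mouse was also the lowest of its 4 (156.4 against 174.6 to 203.9). Without mCh 1 the difference of *Plec* between Dll1+ and Dll1- cells kept its direction.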

How the results depend on the processing

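Across the alternatives, 327 values of single members kept their direction and side of the threshold, while 31 lost the call, 9 gained it and 11 changed direction. *Col17a1* was called higher in Dll1+ cells under 9 of 9 alternatives of the comparison over 4 mice (log2 2.45 to 2.90). *Lamb3* was called under 5 of 9 (0.63 to 0.95) and *Lama3* under 1 of 9 (0.86 to 1.56). The members were chosen with this comparison in view, so these counts describe the settings and carry no test. Without the replicate block, that is without pairing the libraries of a mouse, 1 member (*Col17a1*) was called higher over the 4 mice and 0 in either reporter alone, a fit that called 1352 genes in all over the 4 mice against 2568 with the pairing. Fitting each reporter alone called 0 members in mCh mice, where 0 genes of the table were called. In GFP mice 2 members were called by DESeq2 and 2 without the count filter, *Lamb3* being the addition. In mCh mice DESeq2 called 4 members, *Itga6* being the addition (0.30, DESeq2 adjusted p = 0.0289). Between reporters, DESeq2 called 1 member higher in mCh in Dll1- and 2 in Dll1+ libraries, and without the count filter 0 were called higher in Dll1+ libraries. Leaving out 1 mouse gave 1 to 2 members higher over the 4 mice, 0 to 1 in GFP mice, 0 to 1 higher in mCh against GFP in both Dll1- and Dll1+ libraries, 0 to 4 lower in Dll1- and 0 to 1 lower in Dll1+ libraries, where a lone mouse of a reporter was assumed to vary like the others. The integrin and plakin differences near 0 turned sign: in GFP mice *Itgb4* was 0.003 with RLE size factors and 0.003 with DESeq2, and with 1 mouse left out *Itga6* ran from -0.106 to 0.013, *Itgb4* from -0.169 to 0.151 and *Dst* from -0.035 to 0.011, while *Plec* in mCh mice ran from -0.174 to 0.002 and *Cd151* over 4 mice from -0.026 to 0.111. Between reporters in Dll1- libraries *Lama3* ran from -0.629 to 0.428 and *Lamb3* from -0.799 to 0.641, and in Dll1+ libraries *Lamb3* ran from -0.194 to 0.801, its ends set by leaving out mCh 2 and mCh 1. Per kb of the longest transcript, levels moved to 86.6 for *Itga6*, 5.72 for *Dst* and 12.4 for *Plec*. The cause of these changes was not tested, and 2 mice a reporter limit every comparison between reporters.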
